A study of Arabidopsis thaliana with 39 samples.

Results

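The change of the root epidermis transcriptome after 36 h on iron-free (-Fe) medium was described for all 806 genes of the deposited expression table, by comparing the -Fe 36 h group with the +Fe 0 h group. The comparison uses 6 of the 39 libraries of the series, 3 in each group. All groups were seedlings of the Arabidopsis pWER::GFP line in the Col-0 accession, in which the promoter of WEREWOLF drives green fluorescent protein and so marks the root epidermis, and cells were sorted on that fluorescence from protoplasts of the roots. The 0 h group was 7 days old and had grown on iron-containing (+Fe) medium, and the -Fe 36 h group was 8 days and 12 h old, having been moved from +Fe to -Fe medium on day 7. A +Fe 36 h group of the same age, moved to fresh +Fe medium, is given beside them. The study's methods add the iron chelator ferrozine to make -Fe medium and describe FeEDTA in both media, but according to the labels -Fe medium had none. The 2 sources also name different kits for the libraries, a low input cDNA kit and a directional poly(A) kit.

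The table holds RPKM, read counts scaled for gene length and library size, as 1 value per gene and group. No spread, test or p-value can therefore be given, and the 3 libraries of a group say nothing here about the error of a value. Differences are log2 ratios of RPKM + 1, which understate the change of low genes, and a gene is called higher or lower where the ratio is at least 0.75 or at most -0.75. The 806 genes were deposited as differentially expressed genes (DEGs) of the epidermis, so their shares do not describe all expressed genes. The read depth behind the values is unknown. The study grew seedlings under a daily cycle of light and dark, so time of day also differed between 0 h and 36 h. Iron supply, 36 h of growth, time of day and the transfer itself cannot be told apart in the comparison with 0 h alone. Of the listed cell type markers, 2 of 6 for the epidermis and 1 of 4 for the root cap are among the 806 genes. None of 6 for root hair cells, which belong to the epidermis, 4 for cortex and endodermis and 8 for stele is. Because the 806 genes were deposited as DEGs, the absence of a marker does not show which cells were present. The epidermal markers GL2 and TTG2 were at 189 and 65.7 RPKM at 0 h and at 113 and 81.4 RPKM at -Fe 36 h, and the root cap marker BRN1 was at 1601 and 1690.1 RPKM. A fall in RPKM can mean less RNA per cell or fewer cells of a type, which these values cannot separate.

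Arabidopsis takes up iron by a reduction-based strategy. Protons and phenolic compounds such as coumarins mobilise ferric iron outside the root, a ferric chelate reductase at the epidermal plasma membrane reduces it, and the transporter IRT1 carries ferrous iron into the cell. The transcription factor FIT acts with a small group of related basic helix-loop-helix (bHLH) factors that are themselves induced by iron deficiency, while ferritins, which store iron in plastids, are kept low when iron is scarce.

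Short stretches before the annotated starts of 7 genes are printed because these genes hold, close to the start, a G-box or the core of the zinc deficiency response element. They were chosen after their values were seen, from the genes with large changes. Each line gives the 120 bases before the gene start in RefSeq's TAIR10.1 assembly, 5′ to 3′ on the gene's own strand. In the first group the capitals mark the G-box CACGTG, a site bound by bHLH factors. bHLH38 (chr3:21085246-21085365, minus strand), a bHLH factor gene, and OPT3 (chr4:9250344-9250463, minus strand), a transporter gene, were among the largest rises.
bHLH38: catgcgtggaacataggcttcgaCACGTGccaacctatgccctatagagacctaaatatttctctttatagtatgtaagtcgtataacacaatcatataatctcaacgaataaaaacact
OPT3: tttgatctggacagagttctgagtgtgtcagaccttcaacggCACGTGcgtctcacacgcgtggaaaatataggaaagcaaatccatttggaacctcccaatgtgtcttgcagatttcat

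The G-box also stood before 4 of the 15 genes with the largest falls. These were the ferritin genes FER3 (chr3:20816036-20816155, minus strand) and FER4 (chr2:16833295-16833414, minus strand), and AT2G36885 (chr2:15483789-15483908, minus strand) and AT1G68650 (chr1:25775611-25775730, plus strand), which the annotation describes as a translation initiation factor and as a protein of an uncharacterized family.
FER3: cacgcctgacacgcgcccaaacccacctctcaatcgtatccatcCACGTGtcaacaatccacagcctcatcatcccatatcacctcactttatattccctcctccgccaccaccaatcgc
FER4: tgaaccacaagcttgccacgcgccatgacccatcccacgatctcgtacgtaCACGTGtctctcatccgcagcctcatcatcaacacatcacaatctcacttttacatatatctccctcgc
AT2G36885: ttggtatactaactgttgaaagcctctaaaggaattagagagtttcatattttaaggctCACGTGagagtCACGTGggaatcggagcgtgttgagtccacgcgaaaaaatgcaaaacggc
AT1G68650: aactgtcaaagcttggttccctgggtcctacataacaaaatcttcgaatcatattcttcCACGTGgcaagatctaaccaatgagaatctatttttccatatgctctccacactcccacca

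The last sequence lies before IRT3 (chr1:22447300-22447419, minus strand), a metal transporter gene of the ZIP family that fell. Its capitals mark TGTCGACA, the core of the zinc deficiency response element.
IRT3: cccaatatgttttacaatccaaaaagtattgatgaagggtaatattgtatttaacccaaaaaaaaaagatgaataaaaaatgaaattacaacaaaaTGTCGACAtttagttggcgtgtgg

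A motif match is a description of the sequence, and no binding was measured. The windows searched ran from 250 bases before to 50 bases after the gene start, on both strands. The G-box was present in 10 of 78 windows of higher genes (12.8%), 12 of 102 of lower genes (11.8%), 61 of 626 of the other genes in the table (9.74%) and 2107 of 27443 protein-coding genes of the genome (7.68%). It thus stood before rising and falling genes in similar shares. The zinc deficiency element core was present in 90 of the 27443 windows (0.328%), in 1 lower gene, IRT3, in 1 of the 626 other genes (0.16%) and in no higher gene. The W-box TTGACN, bound by WRKY factors, was present in 68.6% of the windows of lower genes, 55.1% of higher genes, 52.7% of the others and 50.4% of all protein-coding genes. The abscisic acid response element core ACGTGNC, which can share bases with a G-box, was present in 20.5% of higher and 13.7% of lower genes, 11.8% of the others and 10.3% of all protein-coding genes. Site II, TGGGCC, which is common before genes for ribosomal proteins, was present in 8.97% of higher, 5.88% of lower and 7.83% of the other genes, all under the 15.5% of all protein-coding genes.

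After 36 h on -Fe medium, 78 of the 806 genes were higher than at 0 h (9.68%) and 102 were lower (12.7%). The median ratio over the 806 genes was -0.09, and the middle 50% of them lay between -0.42 and 0.25. The rises reached further than the falls. A ratio of at least 3 was found for 14 genes and of at most -3 for 3 genes, and 6 genes had a ratio of at least 5, including 2 that were listed at 0 at 0 h, whereas no gene had one of -4 or below. On +Fe medium, 45 genes were higher at 36 h than at 0 h (5.58%) and 43 were lower (5.33%), with ratios between -1.96 and 2.81. Both comparisons use the same 0 h values, and the difference between them was not tested. Centring each group on its median moved every -Fe ratio up by 0.18 and turned the split from 78 higher and 102 lower to 96 and 77, so that the share of higher genes went from 43.3% to 55.5%. The largest changes do not hinge on such a shift, but the balance of rises and falls does. Just inside the threshold lay AT1G52100 with a ratio of 0.76 and AT3G23870 with -0.76. Just outside it lay SUR2 with 0.73 and HA11 with -0.747.

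**Figure D1:**
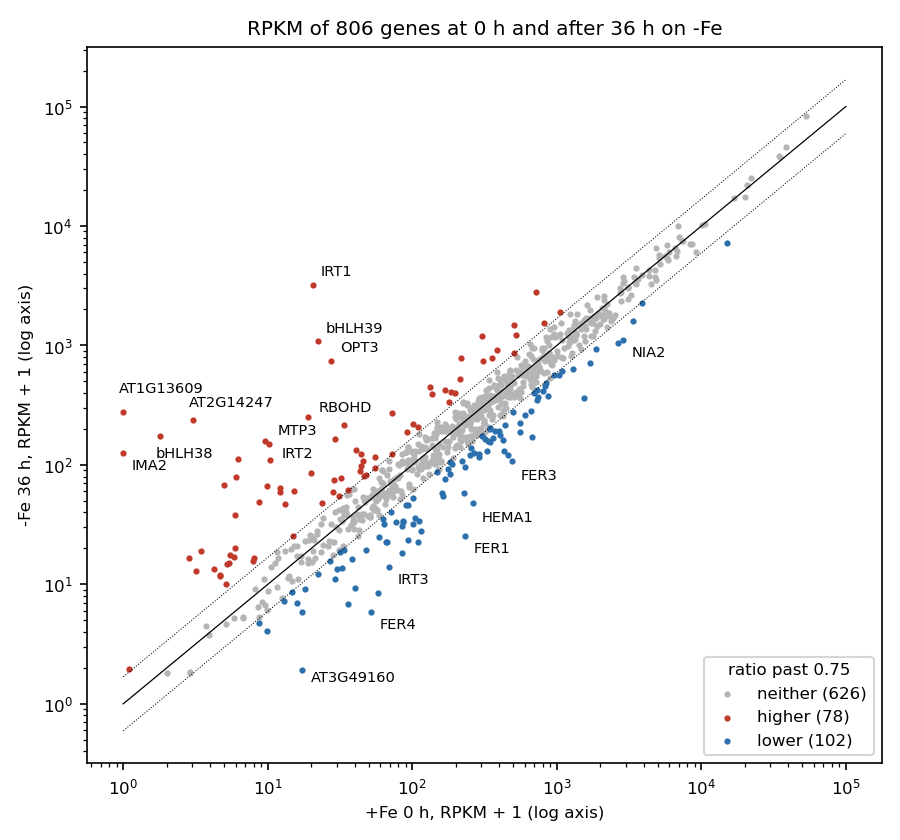
RPKM + 1 of the 806 genes at +Fe 0 h (horizontal log axis) and at -Fe 36 h (vertical log axis), with 1 point per gene coloured by whether its log2 ratio was past 0.75, the solid line at equal values and dotted lines at the threshold. The 78 higher genes reach much further from the line than the 102 lower genes, and IRT1 stands out at 3237 RPKM.

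The higher genes had a lower median RPKM at the start than the other genes in the table. Their median RPKM was 26.9 at 0 h, 110.0 at -Fe 36 h and 23.8 at +Fe 36 h, and 28 of the 78 were under 10 RPKM at 0 h. The lower genes had a median of 222 RPKM at 0 h, 93.1 at -Fe 36 h and 159 at +Fe 36 h, and 2 of the 102 were under 10 RPKM at 0 h. The 626 other genes had medians of 269.6, 252 and 257 RPKM at the same points. The 0 h value enters the ratio itself, so these levels are a description. Median exon length was 1739 bases for the higher, 1594 for the lower and 1833 for the other genes, and median GC content was 40.7%, 41.3% and 41.3%.

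Of the 11 iron uptake genes listed, 6 are in the table, and 5 of them were higher at -Fe 36 h and none lower, beside 9.68% and 12.7% over all 806 genes. Their median ratio was 1.45, beside -0.09 over all 806. IRT1, the main ferrous iron transporter of the root surface, was at 19.5 RPKM at 0 h and at 432, 708, 959, 1039, 1763 and 3237 RPKM at 6, 12, 18, 24, 30 and 36 h after transfer to -Fe. Its ratio at 36 h was 7.31, a 166-fold rise in RPKM, and each of the 6 values lay above the value before it. On +Fe medium IRT1 went from 19.5 to 155 RPKM at 6 h and then to 58.8, 35.4, 23.1, 16.8 and 18.7 RPKM, so the +Fe 36 h value was close to the 0 h value.

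IRT2, its neighbour on chromosome 4 and a close relative, rose from 9.17 to 149 RPKM, with a ratio of 3.88, and was at 4.84 RPKM at +Fe 36 h. FRO2, the ferric chelate reductase of the root surface, was already at 354 RPKM at 0 h and reached 778 RPKM, with a ratio of 1.13. FRO3, a reductase of the same family placed in mitochondria, rose from 131 to 445 RPKM, with a ratio of 1.76. The less abundant reductase gene FRO4, which was on no list and was picked after its values were seen, went from 3.65 to 10.8 RPKM, with a ratio of 1.34.

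F6'H1 encodes the enzyme that makes the coumarin precursor of the phenolics released by iron-starved roots. It was at 43.0 RPKM at 0 h, 32.5 RPKM at -Fe 30 h and 96.3 RPKM at -Fe 36 h, a ratio of 1.15 at 36 h. Its highest values came early and on both media, with 138 RPKM at -Fe 6 h and 288 RPKM at +Fe 6 h, and against the mean of all +Fe groups its ratio at 36 h was 0.022. The proton pump gene AHA7 had 20.9 RPKM at 0 h and 25.2 at -Fe 36 h, a ratio of 0.26, while it was at 6.70 RPKM at +Fe 36 h. Its exons overlap an annotated gene on the same strand and another on the opposite strand, so its values are less certain.

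Among 20 listed regulators of the iron response, 7 are in the table, of which 5 were higher and none was lower, beside 9.68% and 12.7% over all 806 genes, and the median ratio was 2.67, with IMA2, listed at 0 at 0 h, above it. Of the 4 bHLH factors known to partner FIT, 3 are in the table and were higher, and bHLH100 was not analysed here. bHLH38 was at 0.789 RPKM at 0 h and at 12.2, 19.6, 37.7, 61.6, 131 and 175 RPKM over the 6 time points on -Fe medium, and was listed at 0 at +Fe 36 h. Its ratio was 6.62, and because the 0 h value lies under the pseudocount, this figure depends on it. Part of its exons lies opposite those of AT3G56960, which makes its values less certain. bHLH39, the next gene on chromosome 3, was the most abundant of them and went from 21.2 to 1079.8 RPKM, with a ratio of 5.61. It was also the only regulator past the threshold in the same direction on +Fe medium, at 41.0 RPKM and a ratio of 0.92 at 36 h. bHLH101 went from 32.9 to 214 RPKM, with a ratio of 2.67, and was at 17.6 RPKM at +Fe 36 h.

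FIT itself moved little. It was at 851 RPKM at 0 h, between 711 and 839.7 RPKM on -Fe medium from 6 to 30 h and at 1084 RPKM by 36 h, a ratio of 0.35 that did not pass the threshold. At -Fe 36 h FIT and bHLH39 therefore stood at nearly equal RPKM, 1084 and 1079.8. BTSL1 and BTS encode ubiquitin ligases of the hemerythrin type that limit the iron response. BTSL1 rose from 28.4 to 162 RPKM, with a ratio of 2.48, and BTS went from 147 to 227 RPKM, with a ratio of 0.62 that did not pass the threshold and reached 0.80 on centred values. BTSL1 shares exon bases with a gene on the opposite strand.

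IMA2 encodes a small peptide of the IRON MAN family, which act as positive signals of iron deficiency. It was listed at 0 at 0 h and at +Fe 36 h and was at 0.648, 2.33, 8.26, 18.8, 93.2 and 124 RPKM on -Fe medium from 6 to 36 h. No ratio is given for it because of the 0. The defensin-like gene AT1G13609 had the same kind of course, listed at 0 at 0 h, at 2.11 and 1.96 RPKM at 6 and 12 h, and at 20.6, 73.4, 232 and 277 RPKM from 18 to 36 h. It was at 0.990 RPKM at +Fe 36 h. These were the 2 higher genes listed at 0 at 0 h. AT2G14247, annotated as an uncharacterized protein, was at 2.02 RPKM before transfer and, on -Fe medium, at 41.4 RPKM after 6 h and 238 RPKM after 36 h, with a ratio of 6.31, and was at 2.77 RPKM at +Fe 36 h. Its exons overlap a gene on the opposite strand.

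**Figure D2:**
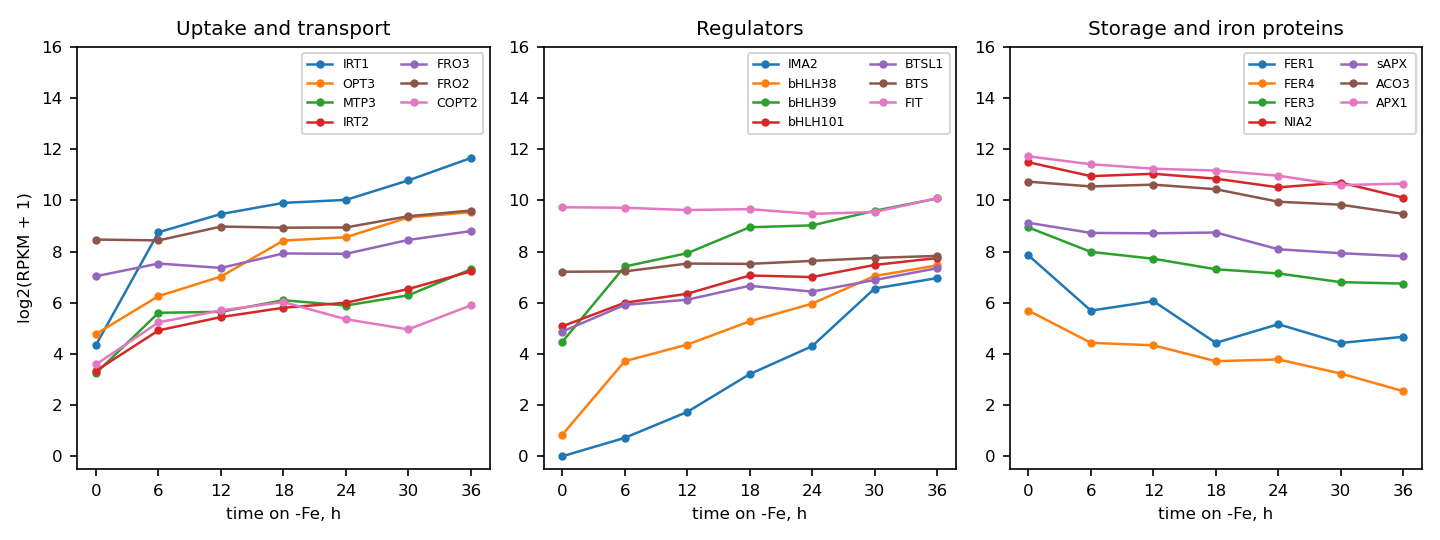
log2(RPKM + 1) of 7 genes in each panel at 0 h (+Fe) and from 6 to 36 h on -Fe medium, with 1 line per gene and 1 deposited value per point. IRT1, bHLH38, bHLH39 and IMA2 climb over the whole course, and FER1, FER3 and FER4 fall. FIT and BTS end short of the threshold, with BTS rising more than FIT.

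Of 32 genes listed for metal transport and chelation, 5 are in the table, with 4 higher and 1 lower, beside 9.68% and 12.7% over all 806 genes, and a median ratio of 2.31 that was 3.87 with +Fe 36 h as the control. OPT3, an oligopeptide transporter family member that loads iron into the phloem and takes part in iron signalling from the shoot, went from 26.6 to 745 RPKM, with a ratio of 4.76. MTP3, which moves zinc into the vacuole, went from 8.52 to 158 RPKM, with a ratio of 4.06, and its ratio between 30 and 36 h was 1.01. COPT2, a copper transporter of the plasma membrane, went from 11.1 to 58.8 RPKM, with a ratio of 2.31, and was at 3.1 RPKM at +Fe 36 h. NRAMP4, which releases iron from the vacuole, went from 197 to 396 RPKM, with a ratio of 1.00.

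ZIP5 was the lower member, at 65.0 RPKM at 0 h and 21.8 RPKM at -Fe 36 h, a ratio of -1.53. IRT3, a ZIP transporter of zinc and iron that was on no list, fell in the same way from 68.3 to 13 RPKM, with a ratio of -2.31, and was at 69.0 RPKM at +Fe 36 h. IREG3, a plastid and mitochondrial member of the ferroportin family, lay close to the threshold with 54.4 and 92.9 RPKM and a ratio of 0.76. The copper and zinc transporter genes thus moved in both directions beside the iron uptake genes.

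Iron storage and iron proteins moved the other way. Of 19 listed genes, 10 are in the table, and 8 were lower and none higher, beside 12.7% and 9.68% over all 806 genes, with a median ratio of -1.28. The 3 ferritin genes measured were among the 15 largest falls. FER1 was at 230.4 RPKM at 0 h and at 50.8, 65.9, 20.6, 34.8, 20.6 and 24.5 RPKM over the 6 time points on -Fe medium, a ratio of -3.18 at 36 h. FER4 fell from 50.8 to 4.84 RPKM, with a ratio of -3.15, and FER3, the most abundant of them, from 492 to 107 RPKM, with a ratio of -2.19. At +Fe 36 h they were at 159.9, 47.4 and 394 RPKM. FER1 was also low on +Fe medium, at 75.4, 60.0 and 60.8 RPKM at 6, 12 and 18 h, and returned to 159.9 RPKM by 36 h. FER4 shares exon bases with a neighbour on the same strand.

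The other lower members carry heme or iron-sulfur groups. The ascorbate peroxidase genes sAPX and APX1 went from 558 to 225 and from 3381 to 1616 RPKM, with ratios of -1.31 and -1.06. ACO3, an aconitase with an iron-sulfur cluster, went from 1704 to 710.4 RPKM, with a ratio of -1.26. SIR, the sulfite reductase, went from 807 to 412 RPKM, with a ratio of -0.97. NIA2, the main nitrate reductase, went from 2882 to 1104 RPKM, with a ratio of -1.38, and also fell on +Fe medium to 1512 RPKM, a ratio of -0.93. Against +Fe 36 h in place of 0 h, the ratio of NIA2 was -0.45 and no longer past the threshold. Its relative NIA1 stayed at 145 and 134 RPKM, a ratio of -0.11, while it was at 57.7 RPKM at +Fe 36 h. The glutamate synthase gene GLT1 went from 1570.2 to 1096 RPKM, with a ratio of -0.52 that did not pass the threshold.

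Genes of tetrapyrrole synthesis and heme proteins were looked up after the values were seen, and their counts are no independent evidence. HEMA1, which catalyses the first committed step of tetrapyrrole and so of heme synthesis, was at 263 RPKM at 0 h and at 207, 189, 112, 91.3, 73.2 and 47.2 RPKM over the 6 time points on -Fe medium. Its ratio was -2.45, while its +Fe values stayed between 245 and 275 RPKM. GUN5, a subunit of the magnesium chelatase of chlorophyll synthesis, was at 13.6 and 7.6 RPKM, a ratio of -0.77, and HEMB2, the other gene of tetrapyrrole synthesis measured, was at 541 and 567 RPKM, a ratio of 0.067. Of 5 genes annotated as members of the peroxidase superfamily, which use heme, 3 were lower and none higher, and AT2G37130 fell most, from 667 to 172 RPKM. Of 16 cytochrome P450 genes, also heme proteins, 3 were lower and 2 higher, shares near the 12.7% and 9.68% over all 806 genes, with a median ratio of -0.08.

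**Figure D3:**
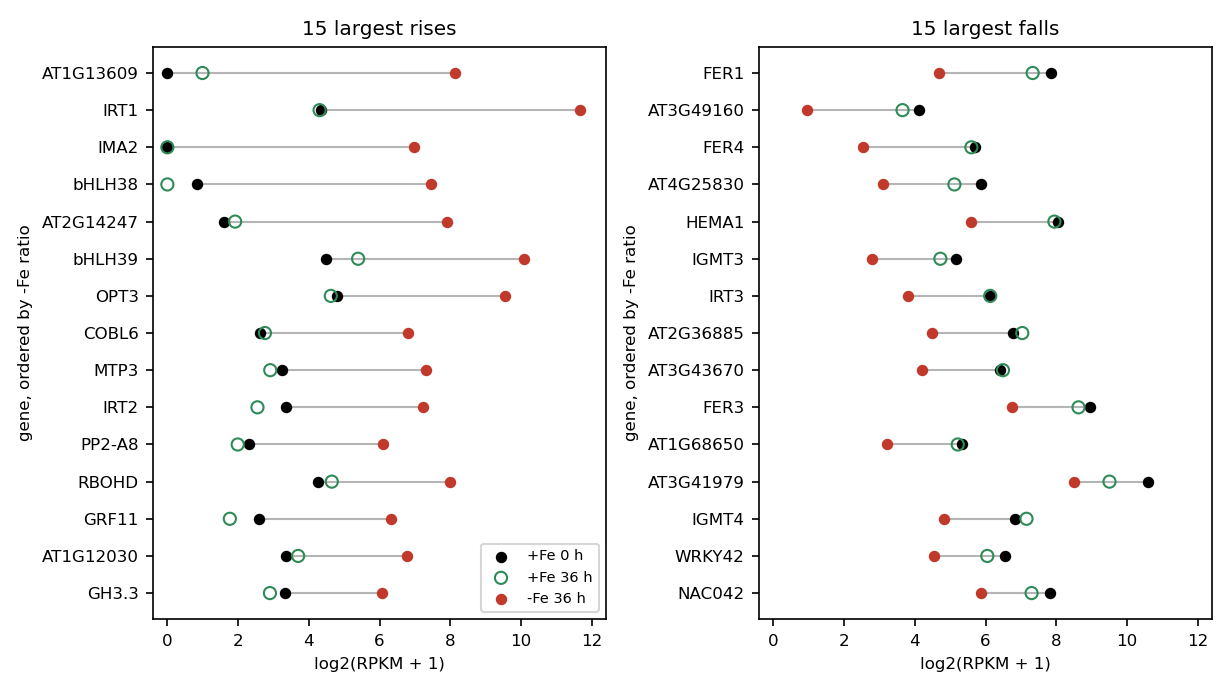
log2(RPKM + 1) of the 15 largest rises (left) and the 15 largest falls (right) at +Fe 0 h (black), +Fe 36 h (open green) and -Fe 36 h (red), ordered by the -Fe ratio. For IRT1, OPT3, HEMA1 and IRT3 the +Fe 36 h point lies on or beside the 0 h point, whereas for AT3G41979 it lies between the 0 h and the -Fe 36 h point.

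The remaining genes among the 15 largest rises were on none of the iron lists. COBL6, of the COBRA-like family of cell wall proteins, went from 5.19 to 111 RPKM, with a ratio of 4.17. RBOHD, an NADPH oxidase that makes superoxide outside the cell, went from 18.1 to 252 RPKM, with a ratio of 3.73. GRF11, a 14-3-3 protein known from iron deficiency signalling, went from 5.03 to 78.8 RPKM, with a ratio of 3.73. PP2-A8, of the phloem protein 2 family, went from 3.98 to 67.0 RPKM, with a ratio of 3.77, and AT1G12030, a DUF506 family gene, from 9.28 to 109 RPKM, with a ratio of 3.42. GH3.3, which conjugates auxin to amino acids, was past the threshold only from 24 h on. It was at 8.93 RPKM at 0 h, 2.33 RPKM at -Fe 12 h, 19.9 RPKM at 30 h and 65.7 RPKM at 36 h, a ratio of 2.75. Of the 9 auxin genes in the table GH3.3 alone passed the threshold, and with so few genes this is near the shares over all 806 genes, 9.68% higher and 12.7% lower. The others included YUC9, an auxin synthesis gene, at 1280.2 and 863 RPKM with a ratio of -0.57.

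Genes of the methionine salvage cycle, which recycles the by-product of making nicotianamine, ethylene and polyamines, were looked up after the values were seen. All 3 that are in the table were higher, beside 9.68% over all 806 genes, but a count chosen in this way is no independent evidence. MTK1 went from 166 to 424 RPKM, MTI1 from 39.7 to 132 RPKM and DEP1 from 184 to 406 RPKM. Their ratios were 1.35, 1.71 and 1.14, and at +Fe 36 h they were at 217, 54.6 and 184 RPKM. On +Fe medium MTK1 had been at 402 RPKM at 6 h, close to its -Fe value at 36 h.

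The 15 largest falls also held genes outside iron metabolism. AT3G49160, annotated as a pyruvate kinase family member, fell from 16.4 to 0.932 RPKM, with a ratio of -3.17, and its exons overlap a gene on the opposite strand. AT4G25830, of a family of uncharacterized membrane proteins, fell from 56.9 to 7.50 RPKM, with a ratio of -2.77. AT2G36885 fell from 108 to 21.4 RPKM and AT1G68650 from 39.3 to 8.27 RPKM, with ratios of -2.28 and -2.12, and both hold the G-box shown above. The copper amine oxidase gene AT3G43670 fell from 84.2 to 17.5 RPKM, with a ratio of -2.21. WRKY42, a transcription factor of phosphate supply, fell from 92.8 to 22.3 RPKM, with a ratio of -2.01, and NAC042, a NAC factor known from longevity and camalexin, from 226 to 57.2 RPKM, with a ratio of -1.96. The 5.8S ribosomal RNA entry AT3G41979, at 1529 and 359 RPKM with a ratio of -2.09, has identical copies elsewhere in the genome, and its value is uncertain.

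The indole methyltransferase genes IGMT2, IGMT3 and IGMT4 stand next to each other on chromosome 1 and modify indole glucosinolates, defence compounds of the cabbage family. They fell from 163 to 54.2, from 34.9 to 5.89 and from 114 to 27.2 RPKM, with ratios of -1.57, -2.38 and -2.03. They were high early on both media, and IGMT2 was at 701 RPKM at -Fe 6 h, 1999.8 RPKM at +Fe 6 h and 219 RPKM at +Fe 36 h. IGMT2 and IGMT3 share 634 bases at 97.95% identity, so reads may have been split between them. The list of indole glucosinolate and camalexin genes had 5 of 15 in the table, 1 higher and 3 lower, beside 9.68% and 12.7% over all 806 genes. The 3 lower ones are these neighbours, so they are not separate cases. The higher one, CYP71A12 of camalexin synthesis, was at 0.0893 and 0.945 RPKM and so near 0 in both groups.

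The other lists are given beside the shares over all 806 genes, of which 9.68% were higher and 12.7% lower. Of 33 genes of sugar starvation and amino acid breakdown, 15 are in the table, and none was higher or lower at -Fe 36 h, with ratios between -0.51 and 0.58 and a median of -0.12. At +Fe 36 h, 7 of the same 15 were higher than at 0 h and none lower, with a median of 0.71. DIN6 and MIOX4 were picked after their values were seen, for their +Fe values. DIN6, asparagine synthetase, was at 1352 RPKM at 0 h, 1221 RPKM at -Fe 36 h and 3259.5 RPKM at +Fe 36 h. MIOX4, an inositol oxygenase, was at 2.71, 3.46 and 25 RPKM, and PCK2, of gluconeogenesis, at 1059.6, 803 and 1881 RPKM. DRM1, a dormancy marker, was at 430.2, 555 and 993 RPKM, and BAM9, of the beta-amylase family, at 196, 137 and 258 RPKM. GDH1, a glutamate dehydrogenase, was at 341, 509 and 234 RPKM. At +Fe 36 h the other 8 did not pass, with ratios from -0.54 for GDH1 to 0.71 for PRODH1, a proline dehydrogenase. The median ratio of the 15 genes at -Fe 36 h was -0.86 with +Fe 36 h as the control and -1.81 with the mean of the +Fe groups. At 6 h all 15 had been above their 0 h values on both media. DIN6 was then at 3049 RPKM on -Fe and 8498 RPKM on +Fe medium, PCK2 at 3599 and 7743 RPKM, and GDH1 at 416 and 589 RPKM.

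Nitrate genes gave 7 of 12 in the table, 1 higher and 2 lower, too few to set apart from 9.68% and 12.7% over all 806 genes. The higher one was NRT1.8, which removes nitrate from the xylem, at 4.84 RPKM at 0 h, 15.8 RPKM at -Fe 36 h and 13.4 RPKM at +Fe 36 h, with ratios of 1.52 and 1.30. The lower ones were NIA2, described above, and LBD39, a repressor of nitrate genes, at 230.0 and 95 RPKM with a ratio of -1.27. NRT2.6, of the high-affinity transporter family, was at 1.89 and 0.819 RPKM and at 11.0 RPKM at +Fe 36 h. Both transporter genes had been far higher on +Fe medium at earlier times. At +Fe 6 and 30 h NRT1.8 was at 199 and 49.4 RPKM and NRT2.6 at 374 and 193 RPKM. On -Fe medium at those times NRT1.8 was at 19.7 and 9.96 RPKM and NRT2.6 at 3.52 and 1.91 RPKM.

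For phosphate, 3 of 13 genes are in the table and only WRKY42 passed the threshold, while PLDZETA2 and RNS1 had ratios of -0.57 and -0.22. Glutathione S-transferases gave 6 of 16, with the neighbours GSTF7 and GSTF6 lower at 131 and 108 RPKM from 433 and 218 RPKM, and GSTU8 and GSTU19 short of the threshold with -0.36 and 0.27. Cell wall loosening genes gave 7 of 12, with 2 lower. These were the expansins EXPB1, from 182 to 82.9 RPKM, and EXPA1, from 265 to 125 RPKM, with ratios of -1.13 and -1.07, while XTH19 and EXLA1 had -0.36 and -0.32. Against +Fe 36 h, the ratios of EXPB1 and EXPA1 were -0.70 and -0.57 and no longer past the threshold. Each of these lists has too few genes to set apart from the 9.68% higher and 12.7% lower over all 806 genes.

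Epidermal fate and root hair genes gave 4 of 24, with ZFP5, a factor of hair initiation, lower at 193 RPKM from 370.3 RPKM and a ratio of -0.94. GL2, TTG2 and GL3 had ratios of -0.74, 0.31 and 0.17. These 4 genes are too few to set apart from the 12.7% lower over all 806 genes. Single members or pairs stood for sulfur, hypoxia, ribosome biogenesis and abscisic acid. LSU2, HRE2 and OLI2 had ratios of 0.48, 0.24 and 0.23, and the membrane peptides RCI2A and RCI2B had 0.43 and -0.024, none past the threshold. None of 11 heat shock genes is in the table.

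**Figure D4:**
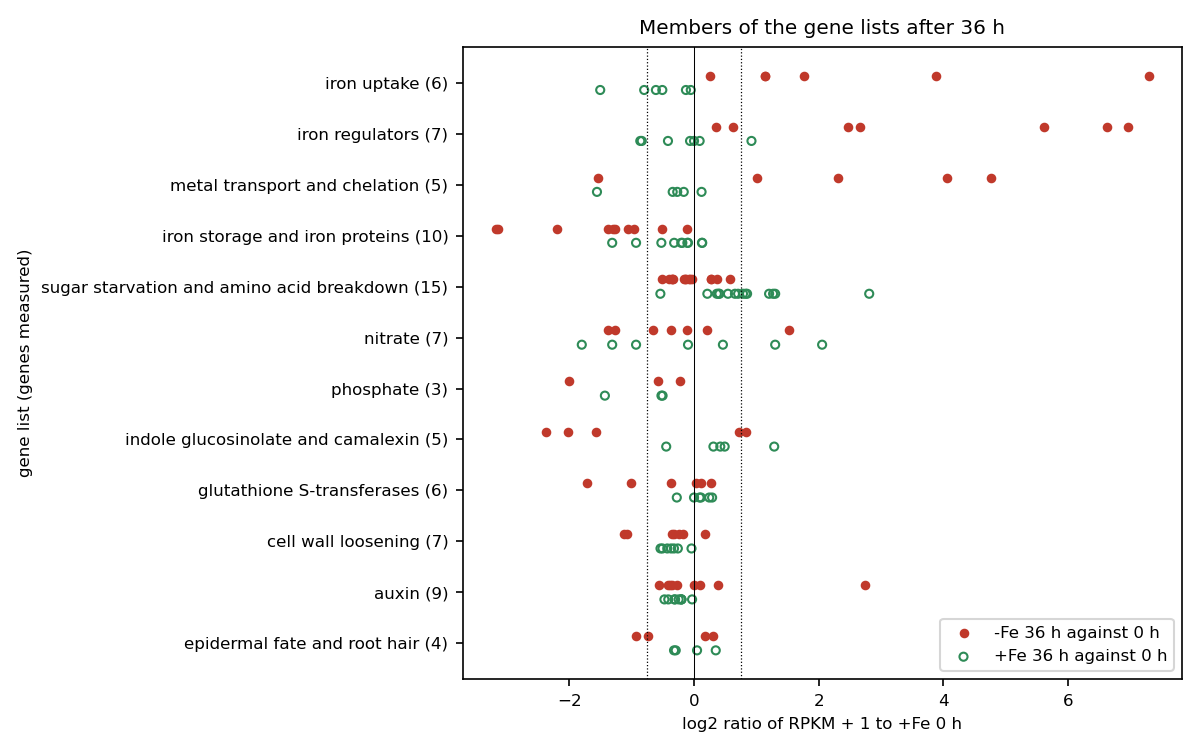
log2 ratio of RPKM + 1 to the 0 h value for each member of the lists with at least 3 genes in the table, at -Fe 36 h (red) and +Fe 36 h (open green), with 1 point per gene and dotted lines at the threshold. The iron lists spread furthest on -Fe medium, and the sugar starvation genes lie near 0 at -Fe 36 h and to the right of it at +Fe 36 h. IMA2, listed at 0 at 0 h, is drawn at its value of log2(RPKM + 1).

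The most abundant transcripts changed little. AT1G52070, a lectin-like gene, was highest at -Fe 36 h with 83078 RPKM, from 52911 RPKM at 0 h, a ratio of 0.65 that passed the threshold at 0.83 only after centring. GSTU19, AT1G52060, GSTU25 and AGP2, an arabinogalactan protein, followed with 46060.2, 38638, 37529.9 and 25259 RPKM, and their ratios lay between 0.11 and 0.27. The 10 most abundant genes at -Fe 36 h held 38.3% of the summed RPKM of the 806 genes there, 33.2% at 0 h and 34.7% at +Fe 36 h. Among genes past the threshold, AT4G15160, a lipid transfer family gene, had the highest 0 h value and went from 15081 to 7256 RPKM. IRT1 reached 3237 RPKM from 19.5 RPKM, and DTX35, a carrier of the MATE family known from flavonoid transport in flowers, 2779 RPKM from 722 RPKM.

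The course over 36 h differed between higher and lower genes. Of the 78 higher genes, 23 were past the threshold from 6 h on without a break, 3 from 12 h, 4 from 18 h, 3 from 24 h, 11 from 30 h and 34 at 36 h only or again at 36 h. Of the 102 lower genes, 11 were past it from 6 h on, 4 from 12 h, 17 from 18 h, 33 from 24 h, 18 from 30 h and 19 at 36 h. Among the 15 largest rises, 12 were past the threshold from 6 h on, 2 from 12 h and 1 from 24 h. Among the 15 largest falls, 4 were past it from 6 h on, including the 3 ferritin genes, 1 from 12 h, 7 from 18 h, 2 from 24 h and 1 from 30 h. On -Fe medium IRT1, IRT2, OPT3, MTP3, bHLH38 and bHLH39 were thus past the threshold at the first time point. IMA2 and COBL6 followed at the next, whereas 10 of the 15 large falls came at 18 h or later. At 6 h the +Fe and -Fe values were 155 and 432 RPKM for IRT1 and 105 and 170 RPKM for bHLH39. OPT3 had 63.4 and 75.7 RPKM, MTP3 24.1 and 47.8, IRT2 12.8 and 29.3, and bHLH38 0.342 and 12.2. For IRT1, bHLH39, OPT3 and MTP3, RPKM thus also rose well above 0 h on +Fe medium at 6 h. The ferritin genes were likewise below their 0 h values on both media at 6 h. Their +Fe and -Fe values were 75.4 and 50.8 RPKM for FER1, 332 and 253 for FER3, and 30.3 and 20.6 for FER4. The difference in timing was not tested. The reverse selection was also common, since 181 genes were past the threshold at an earlier -Fe time point and not at 36 h.

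**Figure D5:**
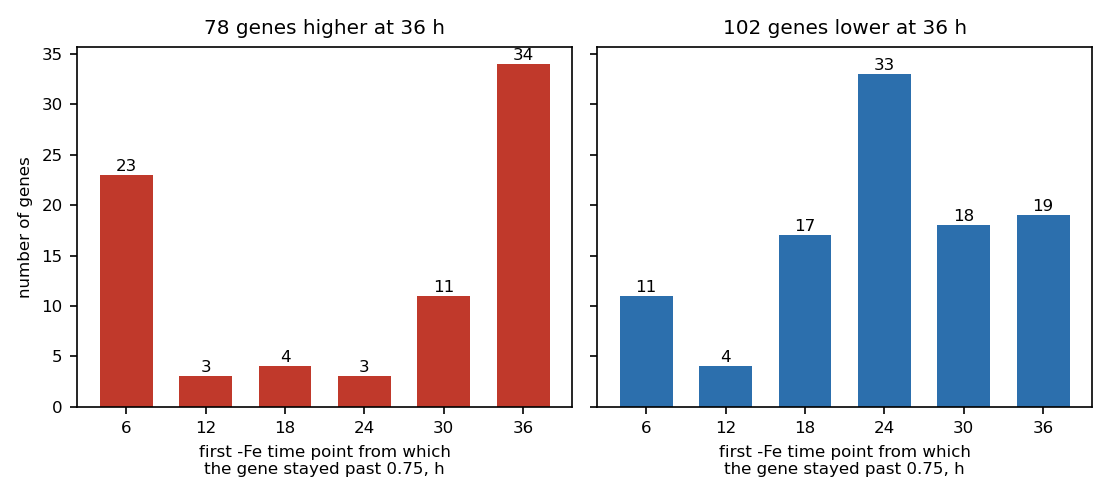
Number of genes by the first -Fe time point (h) from which they stayed past the 0.75 threshold in the same direction up to 36 h, for the 78 higher genes (left, red bars) and the 102 lower genes (right, blue bars). Higher genes pile up at 6 h with 23 and at 36 h with 34, and lower genes at 24 h with 33.

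The median ratio of the 78 higher genes over the 6 time points was 0.72, 0.92, 1.14, 0.70, 0.88 and 1.51, and 62 of them had their largest -Fe ratio at 36 h, where they were selected. On +Fe medium the medians of the same genes were 0.56, 0.41, 0.16, 0.17, -0.016 and -0.0007, so that the early medians were above 0 on both media. The median of the 102 lower genes over the 6 time points was -0.12, -0.36, -0.52, -0.95, -1.18 and -1.16, with 36 of them lowest at 30 h and 54 at 36 h. Between 30 and 36 h the largest further rises among the higher genes were those of GH3.3 with a ratio of 1.67, NDB4, an NAD(P)H dehydrogenase of mitochondria, with 1.55, AT3G59710 with 1.55, F6'H1 with 1.54 and AT4G27450 with 1.54. NDB4 was at 5.54 and 18.203 RPKM at these times, AT3G59710 at 63.7 and 189 RPKM, and AT4G27450 at 3.14 and 11.1 RPKM. The largest further falls were those of AT3G41979 with -0.99, AT4G22470, a lipid transfer protein gene lying opposite another gene, with -0.94, IRT3 with -0.83, FER4 with -0.69 and AT2G36885 with -0.68.

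Beside the +Fe 36 h group, the 78 higher genes fell into 17 that were also higher on +Fe medium, 48 that passed in neither direction and 13 that were lower there. The 102 lower genes fell into 13 also lower on +Fe medium, 88 in neither direction and 1 that was higher. Their median +Fe ratios were -0.0007 and -0.29, beside -0.06 for the 626 other genes. With +Fe 36 h as the control in place of 0 h, 59 of the 78 remained higher and 63 of the 102 remained lower. Genes past the threshold on both media in the same direction included PTR3, a peptide transporter gene, at 2.19, 11.9 and 6.08 RPKM at 0 h, -Fe 36 h and +Fe 36 h, and CYP71B22 at 3.27, 12.5 and 11.9 RPKM. Among the falls they included the kinase gene AT1G51790 at 28.4, 10.07 and 15.1 RPKM, EP1 at 8.88, 3.04 and 4.23 RPKM, and TPR12 at 31.9, 12.8 and 14.8 RPKM. For CYP71B22 and TPR12 the values at 36 h were alike on both media.

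Neighbouring genes were also compared. In the order of genes along the chromosomes, 30 pairs of direct neighbours are both in the table. In 2 pairs both were higher, in 4 both were lower, in 7 only 1 gene was past the threshold and in 17 neither was. No pair went in opposite directions. Over all 806 genes 9.68% were higher and 12.7% lower. The pair counts were not tested against these shares, and with so few pairs the lack of opposite pairs has little meaning. The 2 rising pairs were bHLH38 with bHLH39 and IRT1 with IRT2, each a pair of related genes. The falling pairs were GSTF7 with GSTF6, IGMT3 with IGMT2, IGMT2 with IGMT4, and AT3G46690 with AT3G46700, which encode UDP-glycosyltransferases. IGMT2 is thus counted in both of its pairs, and reads may have been split between it and IGMT3.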

How the data were processed

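The data are RNA-seq values of sorted root epidermis in 13 groups of 3 libraries. The deposited RPKM values, 1 per gene and group, were made by the authors with RSubread after quality control (fastQC), trimming (fastq-mcf) and alignment by tophat2 to TAIR10. Read totals, the way 3 libraries became 1 value, the annotation, and whether counting used strand are not given in the sources used here. All 13 columns were used. Depth is unknown. Of 342 low values multiplied by exon length, 39 (11.4%) were whole multiples, to within 0.05, of their group's smallest value, so reads were not recovered.

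Ratios were log2 of RPKM + 1 with a threshold of 0.75, the size threshold of the study's own test, and no filter. The genes and gene lists were chosen with earlier results of these data known. Named are the 15 largest rises and falls with a mean of at least 1 RPKM, the 4 list members that changed most and every member of the iron lists, the 5 most abundant genes, the 5 largest changes from 30 to 36 h each way, and the 5 genes each way that moved alike on +Fe medium with all that moved oppositely. Genes named as looked up later were chosen after their values were seen. Tetrapyrrole and methionine salvage genes are such groups. Some looked-up genes are not reported here.

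Exons, neighbours and promoter windows came from RefSeq's TAIR10.1 annotation, to which all 806 genes matched, 802 of them protein-coding. Matches of at least 125 bases at 97% identity were found with blastn 2.17.0. Beside those marked in the text, exon overlaps with another gene touch GL2, MTK1, GDH1, ACO3, GLT1, AT3G59710, NAC042, DTX35, DEP1, bHLH101, HA11, AT3G23870, AT4G27450, F6'H1, AT1G68650, NRT1.8, RCI2A, GL3, BAM9, FRO3, EXLA1, DIN6 and PLDZETA2. The motifs TATCCA, GNATATNC, AAACCCTA and AAATATCT were also searched. Ratios and counts were computed in pandas 2.3.3 with numpy 2.4.6 under Python 3.11.15, were tested on simulated data and were drawn with matplotlib 3.10.9. Alternatives were pseudocounts of 0.1, 0.01 and 10 RPKM, minimum means of 1 and 10 RPKM, centring, a threshold of 1 and other controls.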

Additional observations from a re-analysis of the deposited data

Results flagged for a closer look

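For 14 genes the ratios to 0 h passed the threshold in opposite directions on -Fe and +Fe medium at 36 h. Each medium has 1 value per gene, so the difference was not tested, and both ratios share the 0 h value. bHLH38 had a -Fe ratio of 6.62 from 0.789 RPKM at 0 h and was listed at 0 at +Fe 36 h. IRT2 had -Fe and +Fe ratios of 3.88 and -0.80, GRF11 3.73 and -0.83, and bHLH101 2.67 and -0.86. GRP17, a glycine-rich protein gene known from pollen, had 2.68 and -1.77, with 4.93 RPKM at 0 h, 37.0 at -Fe 36 h and 0.740 at +Fe 36 h. CGLD27 had 2.49 and -0.99, COPT2 2.31 and -1.56, and AT1G14185, of the GMC oxidoreductases, 1.76 and -1.05. AT3G18280, a lipid transfer family gene, had 1.48 and -1.96, with 43.3, 123 and 10.4 RPKM. The metallothionein gene MT1C had 1.24 and -1.05, with 385, 911 and 185 RPKM, and was at 44.0 RPKM after 6 h on +Fe medium. GH9B8, a glycosyl hydrolase gene, had 1.24 and -0.76, AT4G22980 0.98 and -0.89, and GLX2-5 0.79 and -0.78. AT1G52200, a PLAC8 family gene, went the other way with -0.78 and 0.99, at 182, 106 and 362 RPKM, and its exons overlap a neighbour on the same strand.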

How the results depend on the processing

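No paired analysis was possible because the deposited table gives 1 value per group and none per library, and for the same reason no replicate could be left out. The number of genes higher at -Fe 36 h lay between 62 and 100 over all alternatives and that of genes lower between 68 and 200. With the mean of the 7 +Fe groups as the control, 200 genes were lower in place of 102, of which 72 were shared. The +Fe counts of 45 higher and 43 lower became 28 and 25 with a pseudocount of 10 RPKM and 25 and 21 with a threshold of 1. Against the mean of the +Fe groups the ratio changed sign for NRT1.8 (-2.25), CYP71A12 (-3.96), EXPA1 (0.090), AT4G27450 (-1.07), PTR3 (-1.09) and CYP71B22 (-0.19), and against +Fe 36 h for CYP71A12 (-0.45). The cause was not tested. Among values of the named genes under all alternatives, 727 kept direction and side of the threshold, 25 fell short of it, 18 passed it, 19 that had not passed it changed sign and 7 that had passed it changed sign. Values under a few RPKM are limited by the unknown depth.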
